A study of Kandelia obovata with 24 samples.

Results

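The leaf transcriptome of *Kandelia obovata*, a mangrove tree planted at the cold edge of its range, was compared between the control libraries labelled CK (9.7 ℃) and those labelled CK (10.2 ℃). The question was what still differed in control leaves after a natural frost, when the air had warmed again, from the leaves sampled before it. The members were chosen by their labels alone and were 6 of the 24 libraries of the series, 3 per group. CK plants received 0 mg L-1 abscisic acid (ABA, the hormone that closes stomata and sets off responses to water loss and cold), and ABA-100 plants received 100 mg L-1 by foliar spray. The series covers leaves of wild type seedlings sampled at 4 stages, labelled 10.2, -4.1, -5.3 and 9.7 ℃, with 3 libraries per stage of CK and of ABA-100. According to the methods of the study, leaves were taken from the same field-planted seedlings at each stage, and the first sampling, at 10.2 ℃, came before the spraying. CK (9.7 ℃) therefore differed from CK (10.2 ℃) by the frost, by time, by earlier leaf sampling and, if the solution without ABA was sprayed on CK, by its solvents, and these cannot be told apart in this comparison.

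Freezing injures leaves mainly by drawing water out of cells and by damaging membranes. Plants that meet cold change the expression of many genes, including those of sugar and proline metabolism, antioxidant enzymes, protein kinase cascades and the phenylpropanoid pathway, which makes lignin, flavonoids and other phenolics. After thawing, part of these changes reverses and other genes respond to the return of warmth and light.

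The labels carry a conflict that bears on every group name used here. The volcano plot whose own title names CK (10.2 ℃) and CK (-4.1 ℃) draws the unigene DN25514_c0_g1 as up-regulated at -4.1 ℃, although the printed legend of that picture describes other panels. In the deposited table it had 814, 843 and 1006 TPM (a length-scaled share of the transcripts of a library) in the libraries labelled CK (10.2 ℃) and 156, 157 and 216 TPM in those labelled CK (-4.1 ℃), the opposite direction. The libraries labelled CK (9.7 ℃) had 1399, 1390 and 1949 TPM, a log2 fold change of 0.82 over CK (10.2 ℃) that did not pass the test (adjusted p = 0.0823, limma). The study drew no volcano plot for 9.7 against 10.2 ℃. The library codes of the groups differ in more than 1 place, and the labels do not say what the codes stand for. All groups are therefore given as labelled, and no library was moved.

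The table held 33344 unigenes, which are genes assembled from the reads without a genome, and 21523 of them reached 1 TPM in at least 3 libraries and were tested. The 6 libraries had 25660 to 26200 unigenes above 0, within the range of 25523 to 27061 over all 24 libraries. Their 10 most abundant unigenes took 17.7% to 19.1% of the TPM. TPM keeps no read number, so the depth behind a value is unknown here. The table pairs no unigene with a gene name, so leaf marker genes could not be looked up, and functions are given only for the 12 hub unigenes that the study annotated.

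The replicates were not equally spaced. Over the 2836 unigenes with a mean of at least 50 TPM, replicates 1 and 2 of CK (10.2 ℃) differed by a median of 0.0419 on the log2 scale, and replicate 3 differed from them by 0.104 and 0.105. In CK (9.7 ℃) the corresponding medians were 0.0416 for replicates 1 and 2, and 0.115 and 0.105 for replicate 3. Replicates 1 and 2 were the closest pair in 7 of the 8 groups. In the remaining group, ABA-100 (9.7 ℃), replicates 2 and 3 were the closest pair, at 0.0419. Their library codes end in 1 and 2, as do those of replicates 1 and 2 in the other groups. By code, the closest pair was thus the same in every group, though not by an equal margin. In ABA-100 (10.2 ℃) the median was 0.0527 for replicates 1 and 2, and 0.0561 and 0.0642 for replicate 3. The study describes 3 biological replicates per group, and whether replicates 1 and 2 share plants, RNA or a library preparation is not given in the sources used here. If they do, the p-values below are too small, so counts are also given with the closest 2 libraries of each group averaged and counted as 1, an alternative chosen after seeing the data.

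Few unigenes differed between the 2 groups by both the adjusted p and the size of the change. The test called 214 differentially expressed genes (DEGs), which was 0.994% of the unigenes tested (limma on log2(TPM + 1), called where the Benjamini-Hochberg adjusted p was at most 0.05 and the log2 fold change lay beyond 1). Of these, 105 were up-regulated in CK (9.7 ℃), 0.488% of the unigenes tested, and 109 were down-regulated, 0.506%. At the adjusted p alone, 2093 unigenes (9.72%) differed, 942 upwards and 1151 downwards, so the fold threshold removed most of them. The 2 groups did not overlap in 6074 unigenes, 28.2% of those tested. The median log2 fold change over all unigenes tested was -0.03.

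With the closest 2 libraries averaged, 100 DEGs were called, 59 up and 41 down, of which 84 were among the 214. A fit of the 6 libraries alone, which takes the spread only from them, called 120 DEGs, 71 up and 49 down, of which 110 were among the 214. The share of up-regulated DEGs was 49.1% in the fit of all 24 libraries and 59.2% in the fit of the 6, so the balance of the directions depended on the fit.

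**Figure D1:**
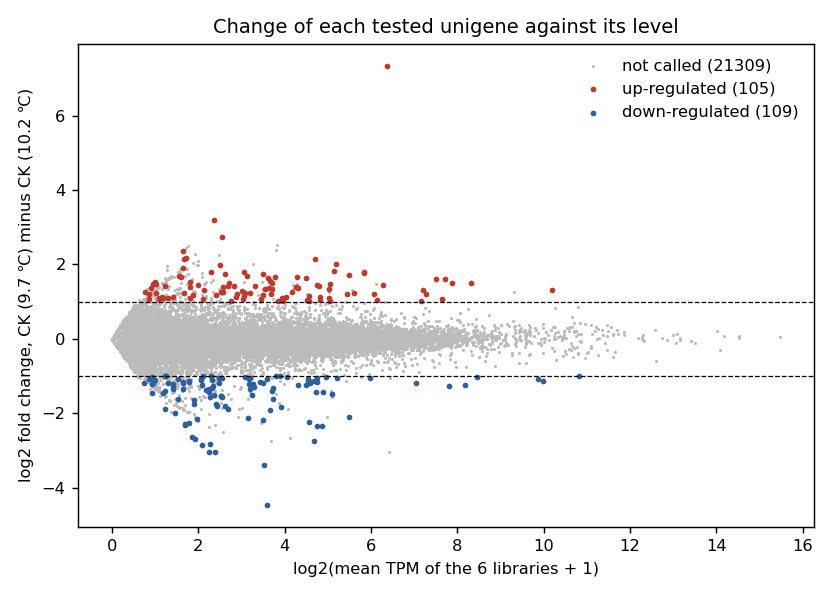
Change of each tested unigene between the groups. The x axis is log2 of the mean TPM of the 6 libraries plus 1, the y axis the log2 fold change of CK (9.7 ℃) minus CK (10.2 ℃). Red points are the 105 up-regulated DEGs, blue points the 109 down-regulated DEGs, grey points the remaining unigenes, and dashed lines a log2 fold change of 1 and -1. Most DEGs lie just beyond the lines. The single point at the top is DN17299_c0_g1, listed at 0 in CK (10.2 ℃), so its height is no measure of size.

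Most of the changes were close to the threshold. The median log2 fold change was 1.34 for the up-regulated DEGs, and 73 of the 105 were under 1.5. For the down-regulated DEGs it was -1.27, and 72 of the 109 were under 1.5 in size. A log2 fold change beyond 2 was found for 8 up-regulated and 20 down-regulated DEGs. Just inside the fold threshold, between 1 and 1.1, lay 44 DEGs, and just outside it, between 0.9 and 1 at the adjusted p, lay 58 unigenes.

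DEGs of both directions ran from low to abundant unigenes. The higher of both group means was at least 10 TPM for 61 of the 105 up-regulated and 50 of the 109 down-regulated DEGs, and at least 100 TPM for 11 and 7 of them. The other 103 DEGs stayed under 10 TPM in both groups. Together the up-regulated DEGs held 0.212%, 0.212% and 0.259% of the TPM of the CK (10.2 ℃) libraries and 0.608%, 0.611% and 0.612% of the CK (9.7 ℃) libraries. The down-regulated DEGs held 0.711%, 0.683% and 0.994% before the frost and 0.399%, 0.358% and 0.292% after it. These sums follow from the choice of the DEGs and describe only how much of the transcriptome they made up.

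Leaving out each of the 6 libraries in turn gave 197 to 226 DEGs, and 107 of the 214 were called in each of these 6 fits, 63 up and 44 down. In the down-regulated DEGs, replicate 3 of CK (10.2 ℃) was the highest library of its group for 59 of the 109, replicate 1 for 23 and replicate 2 for 27. It was also the highest most often over the unigenes tested with a mean of at least 1 TPM, for 6989 of 16984. It lay a median of 0.22 above the other libraries of its group on the log2 scale in these DEGs, and by more than 1 in 15 of them. Over all unigenes tested its median offset was 0. Its part in the down-regulated calls was not tested beyond the fit without it, which called 197 DEGs, 104 up and 93 down.

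The largest changes were sought among DEGs called in all 6 fits without 1 library that averaged 10 TPM or more across the series. Among these, DN17299_c0_g1 and DN32711_c0_g1 rose most, and DN6700_c1_g3 and DN14339_c0_g1 fell most. Some DEGs outside this filter changed more than DN32711_c0_g1 or DN14339_c0_g1. The files and the study's annotation used here give no function for any of the 4.

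DN17299_c0_g1 was listed at 0 in all 3 CK (10.2 ℃) libraries and at 147.8, 211.5 and 133.4 TPM in the CK (9.7 ℃) libraries, a mean of 164 ± 41.5 (SD, n = 3), with an adjusted p of 9.68e-09 (limma). The libraries labelled CK (10.2 ℃) were the exception rather than those at 9.7 ℃, because the unigene was above 0 in the other 18 libraries as well. Its group means there were 92.6 TPM in CK (-4.1 ℃), 87.8 in CK (-5.3 ℃), 31.8 in ABA-100 (10.2 ℃), 80.3 in ABA-100 (-4.1 ℃), 14.4 in ABA-100 (-5.3 ℃) and 22.3 in ABA-100 (9.7 ℃). An exact 0 in a TPM table can also be a failed estimate, so no fold is given.

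DN32711_c0_g1 had 9.36, 6.07 and 10.7 TPM in CK (10.2 ℃) and 35.0, 45.9 and 42.6 TPM in CK (9.7 ℃). All 3 libraries after the frost were above all 3 before it. Its log2 fold change was 2.14 ± 0.45 (SE, adjusted p = 0.00497, limma). The adjusted p was 0.0110 to 0.0272 in the fits without 1 library and 0.0960 with the closest libraries averaged, so this call was lost there. In the other 6 groups its means lay between 20.5 and 32.3 TPM, above CK (10.2 ℃) and below CK (9.7 ℃).

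DN6700_c1_g3 showed the reverse of DN17299_c0_g1, with 13.2, 25.8 and 27.3 TPM in CK (10.2 ℃) and 0 in all 3 CK (9.7 ℃) libraries (adjusted p = 0.00106, limma). It was also listed at 0 in the 3 ABA-100 (-4.1 ℃) libraries. The frost groups CK (-4.1 ℃) and CK (-5.3 ℃) had means of 20.3 and 19.8 TPM, close to CK (10.2 ℃), so within CK it was listed at 0 only in the libraries labelled 9.7 ℃.

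DN14339_c0_g1 had 55.7, 52.8 and 21.2 TPM in CK (10.2 ℃) and 7.54, 7.70 and 2.08 TPM in CK (9.7 ℃), and the groups did not overlap. In both groups replicate 3 was the lowest library. The log2 fold change was -2.74 ± 0.38 (SE, adjusted p = 0.000122, limma), but the adjusted p was 0.0831 in the fit of the 6 libraries alone. CK (-4.1 ℃) lay between the 2 groups at 18.6 ± 8.65 TPM (SD, n = 3), and CK (-5.3 ℃) was as low as CK (9.7 ℃), at 3.74 ± 0.696 TPM. Of the named unigenes with the largest changes it was the only one that also changed in ABA-100 between the same temperatures, where it fell by 1.48 on the log2 scale (adjusted p = 0.00628).

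**Figure D2:**
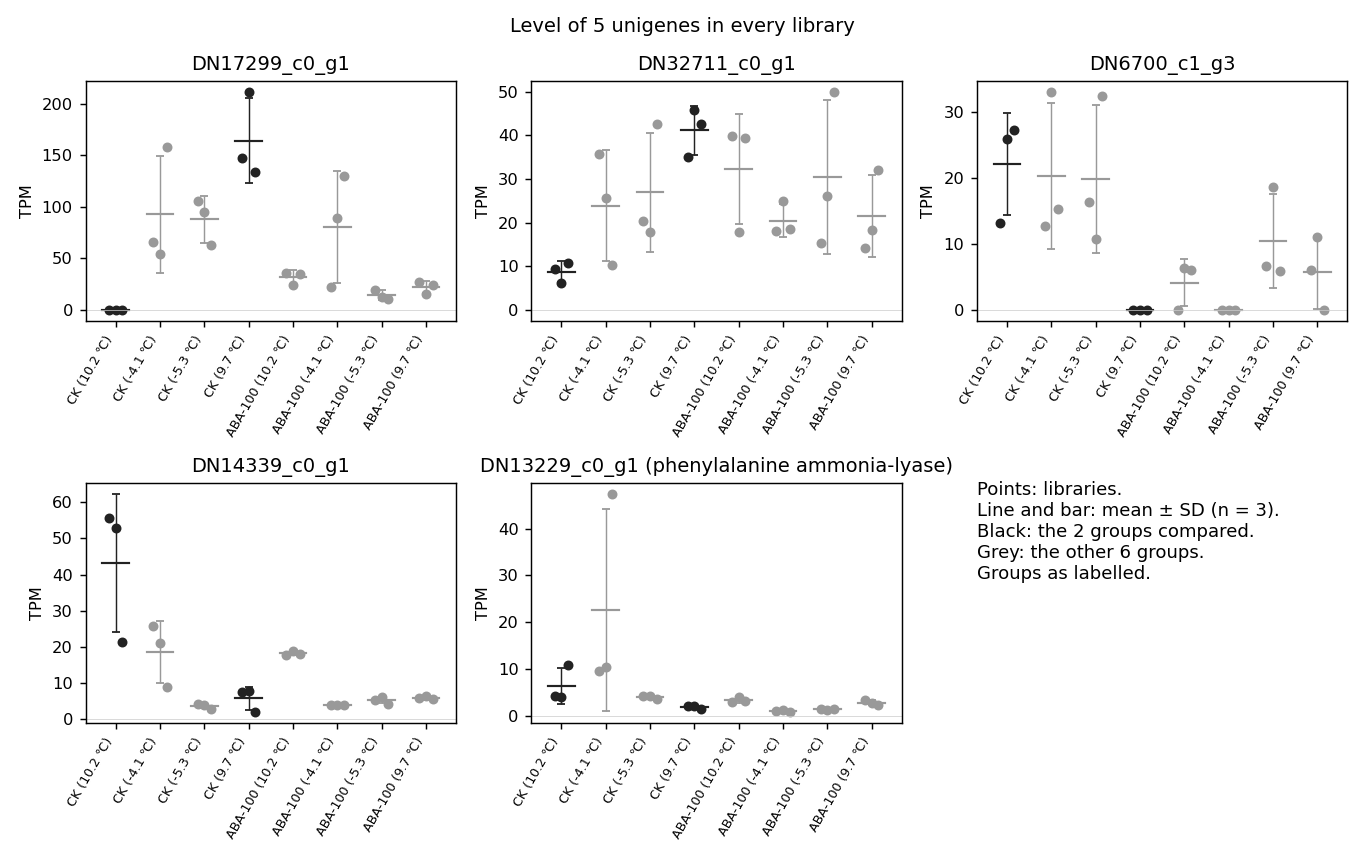
TPM of 5 unigenes in every library, by group as labelled. Points are libraries, the line and bar the mean and SD of 3 libraries, black the compared groups and grey the other 6 groups. DN17299_c0_g1 is at 0 only in CK (10.2 ℃), DN6700_c1_g3 is at 0 in all libraries of CK (9.7 ℃) and ABA-100 (-4.1 ℃), and the phenylalanine ammonia-lyase unigene DN13229_c0_g1 reaches 47.5 TPM in 1 library of CK (-4.1 ℃).

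The hub unigenes are the annotated members of 3 co-expression modules, MEbrown, MEturquoise and MEgrey, which the study chose on these same libraries, so their changes are no independent evidence. Of the 12, none rose, 1 fell and 11 did not pass the test, against 0.994% called among all unigenes tested. Their log2 fold changes had a median of 0.09, against -0.03 over all unigenes tested.

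The hub unigene that fell was DN13229_c0_g1, annotated as phenylalanine ammonia-lyase (PAL), which turns phenylalanine into cinnamic acid and so opens the phenylpropanoid pathway. It had 4.15, 4.02 and 10.8 TPM in CK (10.2 ℃) and 2.02, 1.97 and 1.41 TPM in CK (9.7 ℃). The groups did not overlap, but the highest value came from replicate 3 of CK (10.2 ℃). Its log2 fold change was -1.27, with a 95% interval of -2.10 to -0.44 and an adjusted p of 0.0490 (limma), at the edge of the threshold. The call held in 1 of the 6 fits without 1 library, where the adjusted p ran from 0.0498 to 0.237, and the adjusted p was 0.214 with the closest libraries averaged. Between these stages CK (-4.1 ℃) had 9.65, 10.4 and 47.5 TPM and CK (-5.3 ℃) 4.29, 4.26 and 3.47 TPM. The mean of CK (-4.1 ℃) rested on replicate 3, and the other libraries overlapped CK (10.2 ℃) through replicate 3 of that group alone. The difference between these groups did not pass (adjusted p = 0.0855, limma). Against CK (-4.1 ℃) the log2 fold change was -1.86 in CK (-5.3 ℃) (adjusted p = 0.0058, limma). It was -2.70 in CK (9.7 ℃) (adjusted p = 0.000229, limma), and both passed.

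The MEbrown hub unigenes, which the study tied to soluble protein and proline, moved by a median of -0.39 on the log2 scale, and none of the 4 passed. DN7698_c0_g1, annotated to the plasma membrane, had 66.1, 64.8 and 102 TPM in CK (10.2 ℃) and 46.6, 45.4 and 56.7 TPM in CK (9.7 ℃). These groups did not overlap, and its log2 fold change was -0.61 (95% interval -1.03 to -0.20, adjusted p = 0.0581, limma). DN5170_c1_g1, annotated as a DNA-binding regulator of transcription in the nucleus, had 12.4, 11.5 and 20.3 TPM before and 7.84, 6.78 and 12.9 TPM after, with a log2 fold change of -0.63 (95% interval -1.26 to -0.01) and overlapping groups. For the membrane protein DN8109_c0_g1 the interval was -0.63 to 0.98. For DN7864_c0_g1, annotated with oxidoreductase and peroxidase activity and MAPK signaling, it was -0.73 to 0.39. Replicate 3 was the highest library for all 4 unigenes in both groups.

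The 5 MEturquoise hub unigenes, which the study tied to antioxidant enzymes, all had log2 fold changes above 0, between 0.06 and 0.29, and none passed. DN3958_c0_g1 encodes ferrochelatase, which completes heme by adding the iron to its ring. It had 9.47, 10.1 and 10.7 TPM in CK (10.2 ℃) and 11.5, 11.5 and 11.2 TPM in CK (9.7 ℃), so the groups did not overlap, yet the log2 fold change was 0.16 (95% interval -0.02 to 0.34, adjusted p = 0.275, limma). The change was 0.18 for DN477_c0_g1, a magnesium-dependent Ser/Thr phosphatase (adjusted p = 0.0827). The nuclear protein DN2948_c0_g1 had 0.29 (adjusted p = 0.134), the Ser/Thr kinase DN3221_c0_g1 had 0.13 (adjusted p = 0.315) and the sphingolipid metabolism unigene DN8005_c0_g2 had 0.06 (adjusted p = 0.857). The upper ends of these 5 intervals lay between 0.28 and 0.53, so changes of the size of the fold threshold are outside them.

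The other MEgrey hub unigenes did not pass either. DN3196_c0_g1, a MAP kinase kinase kinase that passes stress signals down a protein kinase cascade, had 13.3, 12.3 and 9.64 TPM in CK (10.2 ℃) and 15.97, 16.2 and 18.5 TPM in CK (9.7 ℃). The groups did not overlap, and its log2 fold change was 0.49 (95% interval 0.10 to 0.89, adjusted p = 0.108, limma). The zinc-binding transcription regulator DN1524_c0_g1 had a log2 fold change of 0.06 (95% interval -0.10 to 0.22).

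**Figure D3:**
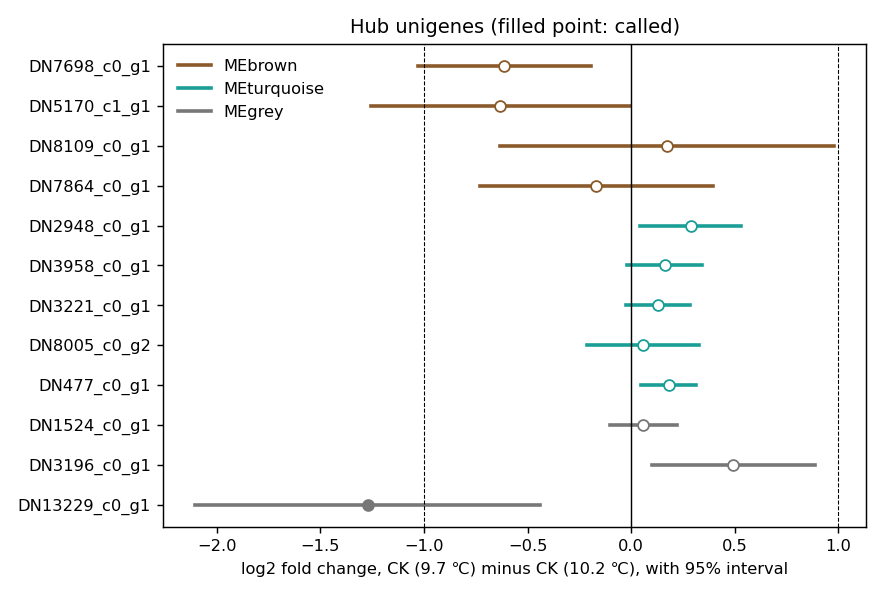
Log2 fold change of the 12 hub unigenes between CK (9.7 ℃) and CK (10.2 ℃). The x axis is the log2 fold change, horizontal lines are 95% intervals from the fit, colours mark the modules, and dashed lines the fold threshold. The PAL unigene DN13229_c0_g1, the filled point at -1.27, is the only one called, and the MEturquoise intervals are narrow and lie near 0.

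The DEGs were followed through the other groups of CK. The up-regulated DEGs lay a median of 0.22 above CK (10.2 ℃) in CK (-4.1 ℃), 1.26 above it in CK (-5.3 ℃) and 1.34 above it in CK (9.7 ℃) on the log2 scale. In CK (-4.1 ℃) 22 of the 105 (21.0%) were closer to CK (9.7 ℃) than to CK (10.2 ℃), against 38.1% of all unigenes tested. In CK (-5.3 ℃) 77 of them (73.3%) were closer to CK (9.7 ℃), against 46.4% of all unigenes tested. Most of these unigenes thus lay nearer to CK (9.7 ℃) in the libraries labelled -5.3 ℃ and nearer to CK (10.2 ℃) in those labelled -4.1 ℃. Both reference groups chose the DEGs, so no course in time is read from these distances.

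The down-regulated DEGs were followed in the same way. They lay a median of 0.54 below CK (10.2 ℃) in CK (-4.1 ℃), 0.73 below it in CK (-5.3 ℃) and 1.27 below it in CK (9.7 ℃). In CK (-4.1 ℃) 48 of the 109 (44.0%) were closer to CK (9.7 ℃), against 38.1% of all unigenes tested. In CK (-5.3 ℃) 58 (53.2%) were closer to it, against 46.4% of all unigenes tested. These shares were near those over all unigenes. All these distances use the CK (10.2 ℃) and CK (9.7 ℃) libraries that chose the DEGs, so they carry no test.

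In the ABA-100 groups the up-regulated DEGs were also above CK (10.2 ℃), by medians of 0.91 at 10.2 ℃, 1.39 at -4.1 ℃, 1.04 at -5.3 ℃ and 1.16 at 9.7 ℃. The down-regulated DEGs were below it by medians of 1.09, 1.15, 0.99 and 0.75. Over all unigenes tested the ABA-100 medians against CK (10.2 ℃) were -0.14, -0.06, -0.10 and 0. As CK (10.2 ℃) was extreme in the DEGs by their choice, other groups tend to lie to that side of it, and nothing is read from these distances.

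**Figure D4:**
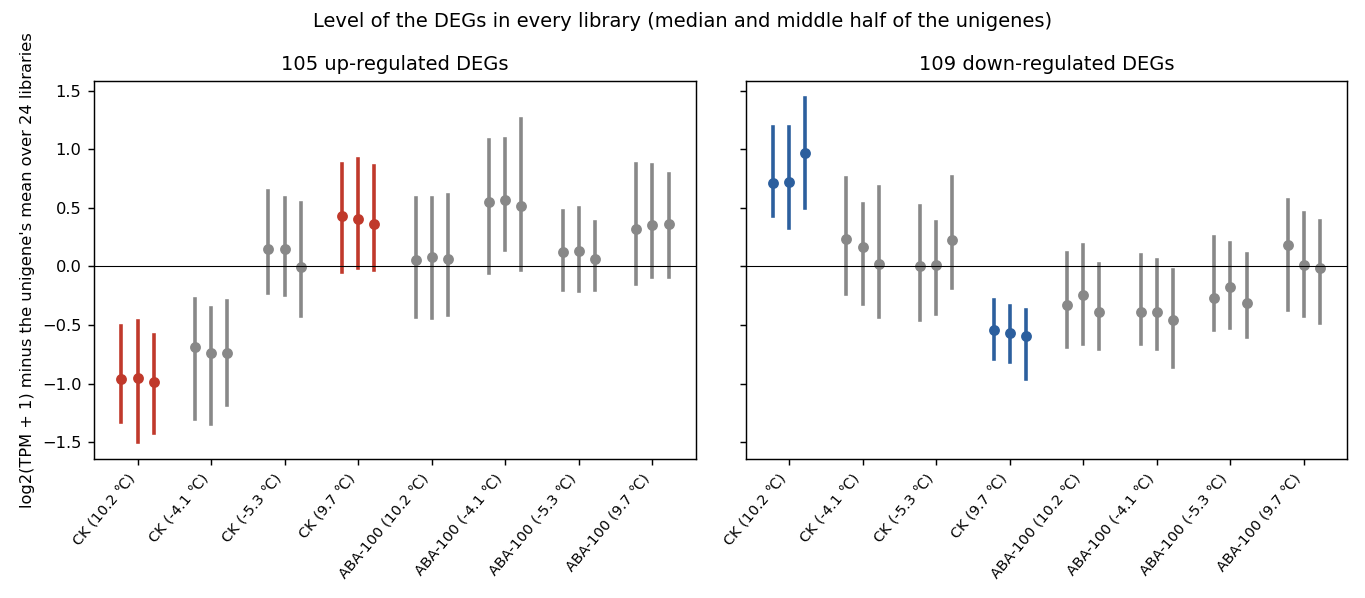
Level of the DEGs in every library. The y axis is log2(TPM + 1) minus the mean of the unigene over 24 libraries, points are medians over the 105 up-regulated (left) and 109 down-regulated DEGs (right), and vertical lines their interquartile range. Coloured libraries chose the DEGs, and grey libraries did not. The up-regulated DEGs are low in CK (10.2 ℃) and CK (-4.1 ℃) and higher in the other 6 groups.

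Comparisons made of other libraries give values for the same DEGs that their choice did not use, apart from the spread that the fit shares between all groups. Between CK (-5.3 ℃) and CK (-4.1 ℃), 270 unigenes were called (1.25% of those tested), of which 213 rose (0.990%) and 57 fell (0.265%). Of the 105 DEGs up-regulated in CK (9.7 ℃), 48 (45.7%) rose there and 1 fell, and 91 had a log2 fold change above 0. Their median log2 fold change was 0.98, against 0 over all unigenes tested. Of the 109 down-regulated DEGs, 6 (5.50%) rose and 7 (6.42%) fell between the same frost groups, with a median of -0.17. With the closest libraries averaged, 24 of 59 up-regulated DEGs rose, and in fits that took the libraries of each comparison alone, 13 of 71 did. Among all unigenes 116 rose with averaging and 51 with the libraries alone, against 213 in the main fit. The base of these shares therefore fell as well.

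Between ABA-100 (9.7 ℃) and ABA-100 (10.2 ℃), the same labelled temperatures in the sprayed plants, 575 unigenes were called (2.67% of those tested), of which 382 rose (1.77%) and 193 fell (0.897%). This comparison also holds the spray itself, since its 10.2 ℃ sampling came before it. Of the DEGs up-regulated in CK, 12 of 105 (11.4%) rose and 5 (4.76%) fell, and the median of all 105 on the log2 scale was 0.22. Of the DEGs down-regulated in CK, 23 of 109 (21.1%) rose and 8 (7.34%) fell, with a median of 0.23. More of the down-regulated DEGs therefore moved against their CK direction than with it. The median over all unigenes was itself 0.16 in this ABA-100 comparison and 0 after median-of-ratios scaling, under which 240 unigenes rose and 238 fell. With that scaling 15 of 94 down-regulated DEGs rose and 8 fell. Without replicate 3 of CK (10.2 ℃) 12 of 93 rose and 8 fell, so the excess was smaller in both.

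**Figure D5:**
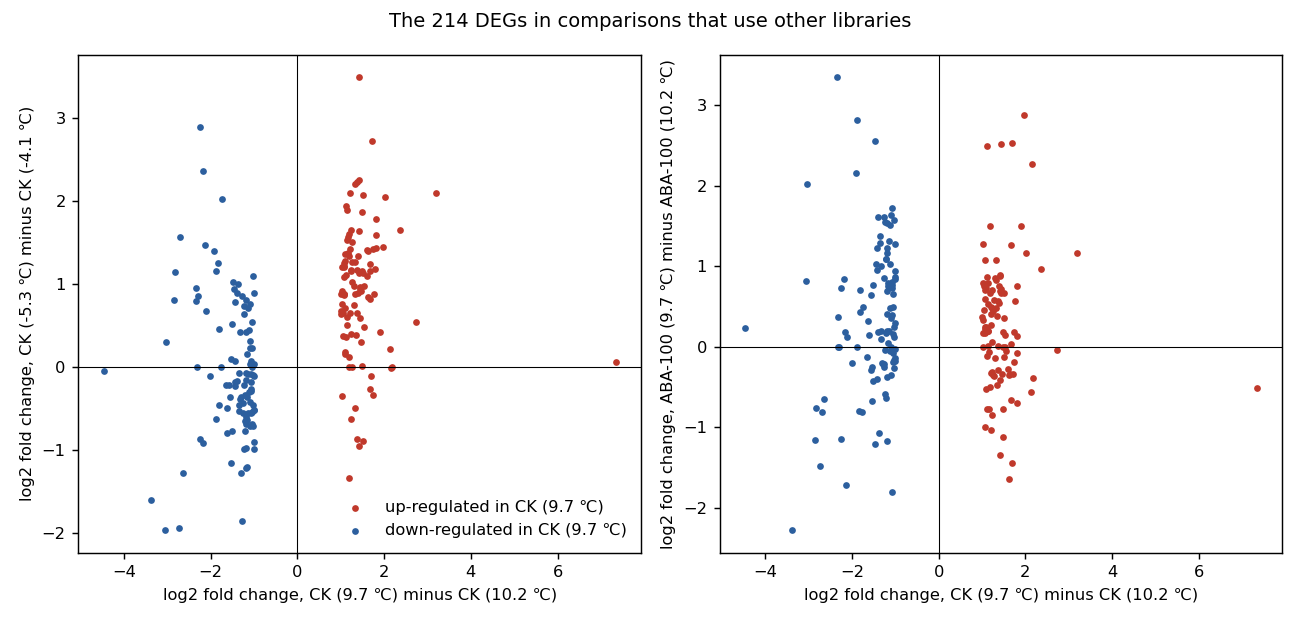
Log2 fold change of the 214 DEGs between CK (9.7 ℃) and CK (10.2 ℃), on the x axis, against that in comparisons of other libraries, on the y axis: CK (-5.3 ℃) minus CK (-4.1 ℃) on the left and ABA-100 (9.7 ℃) minus ABA-100 (10.2 ℃) on the right. Each point is a DEG, red if up-regulated and blue if down-regulated in CK (9.7 ℃). On the left 91 of the 105 red points lie above 0, and on the right both colours lie on both sides of 0.

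The change from 10.2 to 9.7 ℃ differed between CK and ABA-100 for 977 unigenes, 4.54% of those tested, by the difference of both changes within the fit. It was lower in CK for 707 of them (3.28%) and higher for 270 (1.25%), a split that became 411 and 396 with median-of-ratios scaling and 381 and 409 with quantile normalization. Among the hub unigenes, DN7698_c0_g1 had a log2 fold change of -0.61 in CK and 1.38 in ABA-100, where its means were 24.4 TPM at 10.2 ℃ and 65.7 TPM at 9.7 ℃. DN5170_c1_g1 had -0.63 in CK and 1.26 in ABA-100, where it went from 5.36 to 14.9 TPM. For both the ABA-100 change passed the test (adjusted p = 6.22e-05 and 0.00375, limma) and so did the difference between CK and ABA-100 (adjusted p = 8.15e-05 and 0.00305). The CK means were already higher at 10.2 ℃, before the spray, at 77.7 TPM for DN7698_c0_g1 and 14.7 TPM for DN5170_c1_g1. At 9.7 ℃ they were 49.6 and 9.16 TPM. The difference of the changes therefore includes the gap that preceded the spray.

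Unigenes listed at 0 in 1 of the 2 groups were few. There were 12 at 0 in all CK (10.2 ℃) libraries with at least 1 TPM in each CK (9.7 ℃) library, and 14 with the reverse pattern. Of the 12, 6 were called and only DN17299_c0_g1 reached 10 TPM. Of the 14, 11 were called, 4 reached 10 TPM, and the highest value was 27.3 TPM, in DN6700_c1_g3. Over all unigenes tested 0.994% were called. The choice of these unigenes fixes groups that do not overlap and a log2 difference of at least 1, so their calls are no separate result. Of these 14, 13 were above 0 in at least 1 of the other 18 libraries, so their transcripts were detected elsewhere in the series.

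The assembler groups unigenes that share sequence into clusters, and the 214 DEGs came from 207 clusters. In 7 clusters there were 2 DEGs, which changed in the same direction in 6 of them and in opposite directions in 1. Of the 75 DEGs with another tested unigene in their cluster, 14 thus shared it with another DEG. The other 61 shared a cluster with a tested unigene that was not called, and reads can be split between such members, so their levels are less certain than those of the rest. As leaves were sequenced whole, fewer cells of a type and less RNA per cell cannot be told apart for any of these changes.

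Over whole libraries the 2 groups correlated less with each other than within themselves, by a small margin. Pearson's r of log2(TPM + 1) across the unigenes tested, which are not independent replicates, was 0.971 to 0.974 within CK (10.2 ℃), 0.974 to 0.977 within CK (9.7 ℃) and 0.966 to 0.969 between them. CK (9.7 ℃) had r of 0.964 to 0.973 with CK (-5.3 ℃) and 0.958 to 0.968 with CK (-4.1 ℃), ranges that overlap the one with CK (10.2 ℃).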

How the data were processed

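Leaf mRNA of 24 libraries was sequenced by the authors, who used SeqPrep and Sickle for trimming, Trinity for an assembly without a genome and RSEM for abundance. The table deposited by the authors is in TPM, which divides by transcript length and sums to an equal total per library. Changes are therefore relative, and TPM allows no depth, counting error or count test. All columns were mapped to a library by their labels.

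Testing used log2(TPM + 1), a scale that understates the change of low unigenes, and was restricted to unigenes reaching 1 TPM in 3 or more libraries. Group means of the whole series entered 1 limma-trend model (limma 3.58.1, R 4.3.3), with Benjamini-Hochberg adjustment over all 21523 unigenes. The authors' own test, DESeq2, needs counts and was not repeated. With 3 libraries against 3, an exact permutation test of a single value cannot go below 0.1 and was not used. P-values measure the spread between these libraries, which may be technical in part. The members and lists were chosen with earlier results of these data known. Named unigenes are the 12 hub unigenes, up to 2 in each direction with the largest change among DEGs called in every fit without 1 library and with a mean of at least 10 TPM, and DN25514_c0_g1 as the example of the label conflict. No cell type markers were set. Alternatives were another pseudocount, scaling, filter, threshold, fit, replicate block, leaving out each library and averaging the closest libraries. Figures were drawn with matplotlib 3.10.9.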

Additional observations from a re-analysis of the deposited data

Results flagged for a closer look

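The change from 10.2 to 9.7 ℃ differed between CK and ABA-100 for 6 of the named unigenes, by the difference of both log2 fold changes in the limma fit (CK minus ABA-100). Over all unigenes tested 4.54% differed in this way. DN17299_c0_g1, DN32711_c0_g1 and DN6700_c1_g3 were named for their large change in CK, which is part of the difference. Their differences are therefore no separate result. The difference was 7.85 for DN17299_c0_g1 (adjusted p = 3.82e-07), but this rests on the 0 listed in the 3 CK (10.2 ℃) libraries and is no measure of size. It was -4.70 for DN6700_c1_g3 (adjusted p = 0.00402), which is listed at 0 in CK (9.7 ℃), so this is no measure of size either. It was 2.70 for DN32711_c0_g1 (adjusted p = 0.00458), which rose in CK and had a log2 fold change of -0.56 in ABA-100 that did not pass. It was -1.996 for DN7698_c0_g1 (adjusted p = 8.15e-05) and -1.89 for DN5170_c1_g1 (adjusted p = 0.00305), both of which rose in ABA-100 and had changes below 0 in CK that did not pass. It was -2.61 for DN25514_c0_g1 (adjusted p = 0.000196), which rose by 3.43 on the log2 scale in ABA-100 against 0.82 in CK. Its means at 10.2 ℃, before the spray, were 888 TPM in CK and 163 TPM in ABA-100. At 9.7 ℃ they were 1580 and 1870 TPM. Each of these differences includes any gap between CK and ABA-100 that preceded the spray.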

How the results depend on the processing

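The count of 214 DEGs (105 up, 109 down) ran from 197 to 226 without 1 library, 97 to 131 up and 88 to 118 down. It was 120 with the 6 libraries alone (49 down), 359 with a pseudocount of 0.1 (184 up, 175 down), 99 among unigenes with a mean of at least 10 TPM (61 up, 38 down, 61.6% up), 100 with the closest 2 libraries averaged (59 up, 41 down) and 2093 without the fold threshold (942 up, 1151 down). At an adjusted p of 0.01 or less, 65 down-regulated DEGs remained by count. The 1 hub call became 0 with the 6 libraries alone, median-of-ratios scaling, quantile normalization, no filter, no trend, the replicate block, the closest libraries averaged and an adjusted p of 0.01 or less, and it was 0 to 1 without 1 library. The count was also 0 with a mean of at least 10 TPM, where DN13229_c0_g1 was not tested.

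The ABA-100 count of 575 became 902 with a pseudocount of 0.1 and 151 with a mean of at least 10 TPM. The count of 270 between CK (-5.3 ℃) and CK (-4.1 ℃) became 70 with its libraries alone, 132 with a mean of at least 10 TPM, 139 with the closest libraries averaged and 235 to 426 without 1 library, with 426 reached without replicate 3 of CK (-4.1 ℃). The 977 differences between CK and ABA-100 became 312 with a mean of at least 10 TPM and 640 with the closest libraries averaged. Of the uncalled hub unigenes, 3 changed sign without 1 library: DN8109_c0_g1 ran from -0.15 to 0.52, DN8005_c0_g2 from -0.0424 to 0.18 and DN7864_c0_g1 from -0.35 to 0.20, and DN8005_c0_g2 was also -0.0075 with the closest libraries averaged. Filters and averaging leave fewer unigenes or libraries in the fit, and the cause of the other shifts was not tested.

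The groups share replicate numbers, and same-numbered libraries deviated together only weakly (r = 0.0382, 0.0150 and 0.0812 across unigenes). Replicate 3 of either group had r of -0.0593 to -0.0268 with replicates 1 and 2 of the other. The only library that did not correlate best with its own number was CK (9.7 ℃) replicate 2, with 0.0254 for CK (10.2 ℃) replicate 1. The labels do not say whether numbers follow seedlings, so these values do not settle a pairing. Same-numbered libraries were not taken as pairs. With the replicate block, 213 DEGs were called, of which 206 were among the 214, and apart from the hub call no called named unigene lost its call. The replicate numbers are those of the labels. In ABA-100 (9.7 ℃) and CK (9.7 ℃) some differ from the last digit of the library code, so the block may misalign libraries. TPM limits every value here, because the reads behind a low value are unknown and 103 of the DEGs stayed under 10 TPM.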
